A study of Mus musculus with 8 samples.

Results

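The genes of transforming growth factor-β (TGF-β) signalling examined here are 9 genes chosen by name among the 31406 genes of the count table: the ligands Tgfb1, Tgfb2 and Tgfb3, the latent TGF-β binding protein family gene Ltbp2, the receptors Tgfbr1 and Tgfbr2, the signal transducer Smad3, the feedback inhibitor Smad7 and the TGF-β-induced matrix gene Tgfbi. All 9 were found once, with the same identifier, in both tables of the series. They were measured by RNA sequencing in 8 libraries of wild-type mouse microglia, which are the resident immune cells of the brain, grown as striatal primary cultures from newborn C57/BL6 pups. The time field of the labels reads day 3 for all 8. Every culture was kept for 15 days. Activation then lasted 48 h in all of them and used bacterial lipopolysaccharide (LPS) at 0.01% and interferon-γ at 0.002% by volume, so no culture was left without activation. In 4 libraries the cells had also received SCH 58261, an antagonist of the adenosine A2A receptor (A2A antagonist group), and in the other 4 they had received SCH 58261 together with 200 nM 2-Cl-IB-MECA, an agonist of the adenosine A3 receptor (dual group), with additions at 24, 32 and 40 h of activation. The groups were taken from the titles. The treatment field of the labels contradicts them, where the agonist is given for the group whose titles hold SCH 58261 alone and is missing for the group whose titles hold both compounds, so every direction given here rests on the titles. Libraries of activated cells with vehicle were not analysed here, and both groups carry the antagonist, so the comparison concerns only what the A3 receptor agonist added to it.

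TGF-β ligands are secreted bound to their own propeptide in a latent complex, which latent TGF-β binding proteins can tie to the extracellular matrix. Once released, a ligand binds the type II receptor encoded by Tgfbr2, which recruits and phosphorylates the type I receptor encoded by Tgfbr1, and the type I receptor phosphorylates SMAD2 and SMAD3. These enter the nucleus with SMAD4 and regulate target genes, among them Smad7, whose product blocks the receptor. In the brain, TGF-β is known as a signal needed by microglia to keep their homeostatic gene programme.

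The promoters of 4 of these genes are shown because they include the gene closest to the threshold (Smad3), the one that varied most between libraries (Ltbp2) and a pair of ligands with unequal base composition (Tgfb1 and Tgfb2). Each window runs from 250 bases before to 50 bases after the start in RefSeq, 5′ to 3′ on the strand of the gene, on GRCm38.p6, and lies at chr7:25686752-25687051 for Tgfb1, chr1:186705940-186706239 for Tgfb2, chr12:84876442-84876741 for Ltbp2 and chr9:63757945-63758244 for Smad3. The start of Ltbp2 in the deposited table differs from that in RefSeq and leaves 209 bases of the window before it. Capitals mark the SMAD binding core CAGAC and the GC box GGGCGG, each on either strand.
Tgfb1: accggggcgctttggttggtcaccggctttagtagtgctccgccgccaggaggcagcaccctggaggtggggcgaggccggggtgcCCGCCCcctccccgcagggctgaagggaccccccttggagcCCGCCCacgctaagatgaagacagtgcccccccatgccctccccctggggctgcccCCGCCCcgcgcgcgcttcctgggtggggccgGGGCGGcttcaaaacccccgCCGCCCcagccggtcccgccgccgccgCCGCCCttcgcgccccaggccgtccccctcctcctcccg
Tgfb2: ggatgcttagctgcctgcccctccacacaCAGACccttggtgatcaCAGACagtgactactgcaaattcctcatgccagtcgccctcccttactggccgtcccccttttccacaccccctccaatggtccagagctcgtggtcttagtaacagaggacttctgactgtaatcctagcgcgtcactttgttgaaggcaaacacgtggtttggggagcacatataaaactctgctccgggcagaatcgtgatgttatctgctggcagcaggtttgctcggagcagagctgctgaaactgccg
Ltbp2: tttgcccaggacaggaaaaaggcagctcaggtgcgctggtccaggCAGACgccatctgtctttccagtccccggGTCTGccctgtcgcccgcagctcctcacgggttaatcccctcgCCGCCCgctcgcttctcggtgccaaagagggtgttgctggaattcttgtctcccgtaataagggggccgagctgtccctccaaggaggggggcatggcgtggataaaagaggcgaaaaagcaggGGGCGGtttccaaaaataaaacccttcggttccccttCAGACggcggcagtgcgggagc
Smad3: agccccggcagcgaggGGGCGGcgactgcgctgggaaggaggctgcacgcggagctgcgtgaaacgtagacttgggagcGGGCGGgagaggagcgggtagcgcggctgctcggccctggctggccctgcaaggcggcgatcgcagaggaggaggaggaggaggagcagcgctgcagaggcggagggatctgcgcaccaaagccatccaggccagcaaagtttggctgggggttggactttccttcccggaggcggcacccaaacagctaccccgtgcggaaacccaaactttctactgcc

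The Tgfb1 window held 6 GC boxes and no SMAD core, and its GC content was 77%. The Tgfb2 window held 2 SMAD cores and no GC box at 54.3% GC, the Ltbp2 window 3 SMAD cores and 2 GC boxes, and the Smad3 window 2 GC boxes and no SMAD core. Among 32544 windows of the same length over all genes, 49.5% held the SMAD core and 35.9% the GC box, so both are common. The palindromic SMAD element GTCTAGAC, held by 0.215% of all windows, and the AP-1 element TGACTCA, held by 5.19%, were searched on both strands and neither was among the letters of these 4 windows. No motifs overlapped in them. A match is a description of the letters and says nothing about binding in these cells. A window was listed for 7 of the 9 genes.

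None of the 9 genes had an adjusted p-value under 0.05 in the edgeR quasi-likelihood test, which called 39 of the 18756 genes tested (0.208%), 9 of them higher (0.048%) and 30 lower (0.16%) with both ligands. The log2 fold changes of the dual group over the A2A antagonist group lay between -0.12 for Tgfb1 and 0.16 for Ltbp2, 5 above and 4 below 0, with a median of 2.7e-06 against 0.0038 over all genes tested. Regardless of sign, their median was 0.072, the same as over all genes tested (0.072) and above the 0.044 of the 7161 genes tested at or above the level of the lowest of the 9. The 95% interval of the fold change lay within 1.5-fold in either direction for all 9 genes and within 1.2-fold for 8, the exception being Ltbp2 with an upper bound of 1.24-fold. Without adjustment, 4 of the 9 (Tgfb1, Tgfb3, Ltbp2 and Smad3) had a p-value under 0.05, where 12.8% of all genes tested reached this level. In an alternative test with DESeq2, 3 of the 9 had an unadjusted p-value under 0.05 and 1, Smad3, had an adjusted p-value under 0.05, where DESeq2 called 417 of the 8877 genes to which it gave an adjusted p-value (4.7%). The methods of the study give 4 pregnant animals in total, and neither they nor the labels say which litter each replicate came from. The p-values therefore set the group difference against the spread between these cultures only.

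**Figure D1:**
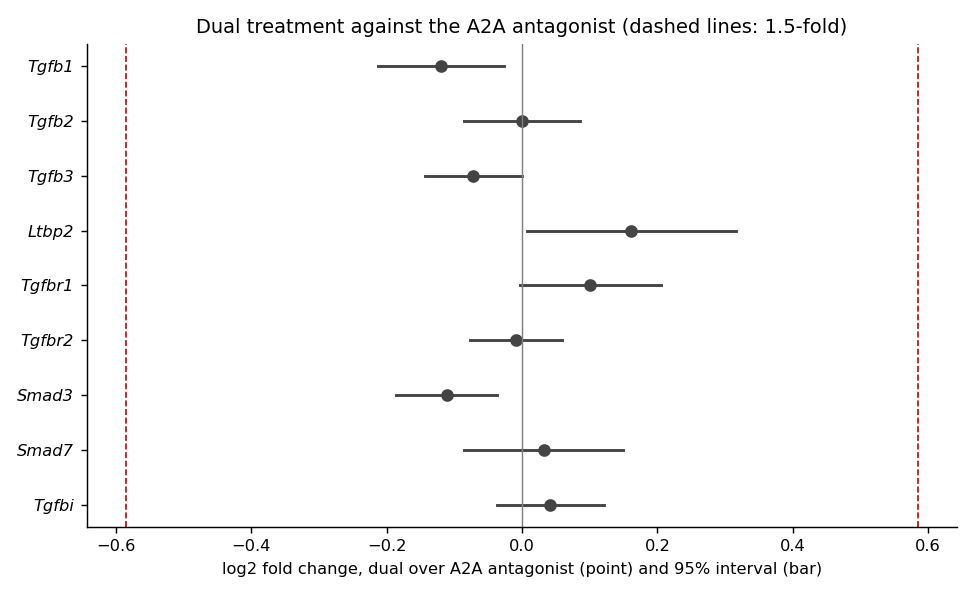
Log2 fold change of the dual group over the A2A antagonist group (x axis) for the 9 TGF-β genes (y axis), with the 95% interval from the edgeR fit over 4 libraries per group as a bar and 1.5-fold in either direction as dashed lines. All 9 bars lie inside the dashed lines, and the widest belongs to Ltbp2, from 0.0077 to 0.32.

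The libraries held between 32630602 and 45878639 counts, and 26155 to 26809 genes were detected in each. The defining markers of microglia were present: the 8 listed, among them Itgam, Csf1r, C1qa and Trem2, summed to between 1122 and 1190.5 CPM (counts scaled to the library size, as edgeR gives them) with the antagonist and between 1076 and 1147 CPM with both ligands. The most abundant, the complement gene C1qa, was also the one marker called, with means of 476.3 and 402.9 CPM. The markers of this list did not move together. Csf1r ran from 210.8 to 223.0 CPM with the antagonist and from 225.9 to 244.1 CPM with both ligands. Aif1 ran from 55.2 to 61.0 CPM and from 45.3 to 55.6 CPM. The study reports a high purity of microglia by CD11b labelling, yet the astrocyte and fibroblast sums exceeded the microglia sum in every library. Sums of different lists do not measure shares of cells. The 8 astrocyte markers, led by the glutamate transporter gene Slc1a3, summed to between 6087 and 6376 CPM with the antagonist and between 6189 and 6624 CPM with both ligands, and the 8 fibroblast markers, led by Col3a1, to between 2566 and 2897 CPM and between 2571 and 3256 CPM. Of the remaining lists, oligodendrocyte lineage markers summed to between 623.2 and 658.8 CPM with the antagonist and between 576.2 and 612.5 CPM with both ligands. The groups of this sum did not overlap, where 7.42% of single genes tested were separated in this way. Each of the 8 markers overlapped on its own and none was called. The most abundant, Olig1, ran from 259.0 to 286.6 CPM and from 233.7 to 264.4 CPM. Endothelial, mural and neuronal markers summed to at most 235.9 CPM in any library, and the endothelial marker Cldn5 was not listed. In bulk RNA, fewer cells of a type cannot be told apart from less RNA per cell. The part of each cell type in the levels of the TGF-β genes was not tested.

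All 9 genes were well covered, with 1014 counts in the lowest library of the lowest gene (Smad7) and 8382 in the highest library of Tgfbi. Levels of different genes are compared as CPM divided by the gene length in kb. On this scale the order over the 8 libraries was Tgfbi (mean 46.9), Tgfb3 (46.1), Smad3 (22.6), Ltbp2 (20.4), Tgfbr2 (16.7), Tgfb1 (11.1), Tgfb2 (7.49), Smad7 (6.26) and Tgfbr1 (5.38). The ranges over the libraries overlapped for 3 neighbouring pairs in this order, namely Tgfbi and Tgfb3, Smad3 and Ltbp2, and Smad7 and Tgfbr1, and the other neighbours were separated in all 8 libraries. The order is a description, and no test was made between genes.

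**Figure D2:**
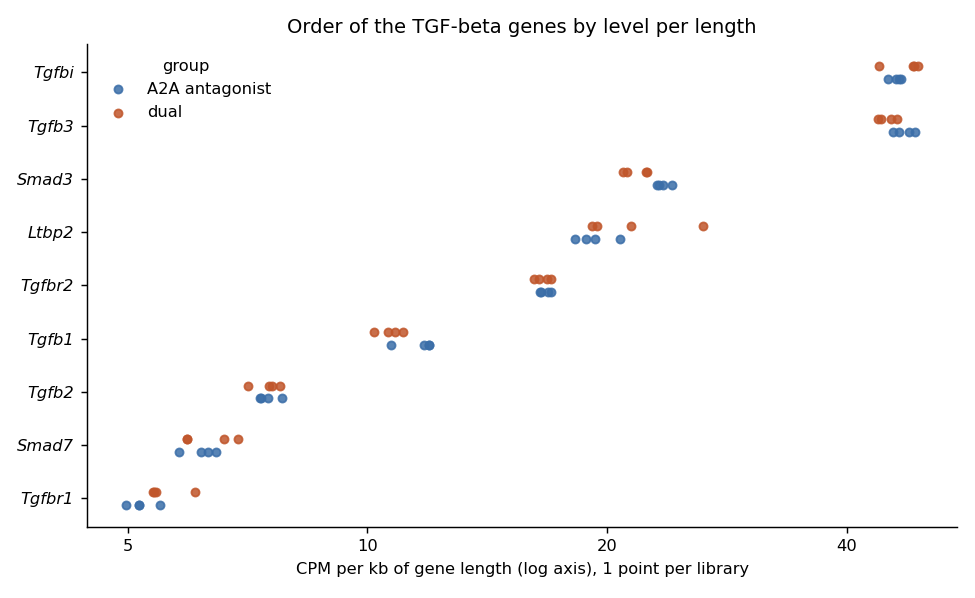
CPM per kb of gene length on a log axis (x axis) for the 9 TGF-β genes (y axis), with 1 point per library and the groups in separate colours. Tgfbi and Tgfb3 lie together at the top, between 43.8 and 49.2, and Tgfbr1 is lowest, between 4.98 and 6.08.

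Tgfb3 was the main TGF-β ligand transcript of these cultures. In sums of the 3 ligands per kb of length, its share was 71.2% ± 0.837 in the A2A antagonist group and 71.2% ± 0.268 in the dual group (SD, n = 4 each), and its lowest share in any library was 70.4%. Tgfb1, the isoform most often studied in immune cells, made up 17.5% ± 0.974 (SD, n = 4) and 16.9% ± 0.577 (SD, n = 4), and Tgfb2 made up 11.3% ± 0.398 (SD, n = 4) and 11.9% ± 0.402 (SD, n = 4). The shares of each ligand overlapped between the groups. They depend on 1 length per gene, 3383 bases for Tgfb3, 5042 for Tgfb1 and 5791 for Tgfb2, and other lengths were not run. In CPM without division by length Tgfb3 was also highest, with a mean of 156.0 over the 8 libraries, against 56.1 for Tgfb1 and 43.4 for Tgfb2. The summed level of the 3 ligands was 66.4 ± 1.30 CPM per kb in the A2A antagonist group, from 65.0 to 68.1, and 63.1 ± 1.44 CPM per kb in the dual group (SD, n = 4 each), from 61.6 to 64.7. The groups of this sum did not overlap, which is given without a test because the sum was formed over chosen genes.

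Tgfb1 (ENSMUSG00000002603, chromosome 7, 25687002 to 25705077, plus strand, GRCm38) had 54.0, 60.2, 59.5 and 60.2 CPM in replicates 1 to 4 of the A2A antagonist group and 55.8, 51.4, 54.6 and 53.5 CPM in replicates 1 to 4 of the dual group. Replicate 1 of the A2A antagonist group lay among the dual libraries and the other 3 lay above all of them. The means were 58.4 ± 3.00 and 53.8 ± 1.88 CPM (SD, n = 4 each), with a log2 fold change of -0.12 (SE 0.044, 95% interval -0.21 to -0.027), an unadjusted p-value of 0.0140 and an adjusted p-value of 0.246. All single genes were also compared by a two-sided exact permutation test, which has 70 arrangements here and gave p = 0.0857 for Tgfb1. The difference therefore did not pass the test over all genes, and its interval reached from 0.863 to 0.981 as a fold.

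Tgfb2 (ENSMUSG00000039239, chromosome 1, 186622792 to 186705989, minus strand) had 45.2, 42.5, 43.5 and 42.5 CPM with the antagonist and 41.0, 43.6, 44.0 and 44.9 CPM with both ligands. The means, 43.4 ± 1.28 and 43.4 ± 1.71 CPM (SD, n = 4 each), were indistinguishable, with a log2 fold change of 2.7e-06 (95% interval -0.086 to 0.086) and an exact permutation p of 0.914. Tgfb3 (ENSMUSG00000021253, chromosome 12, 86056745 to 86079041, minus strand) had 162.2, 165.2, 157.3 and 154.9 CPM with the antagonist and 149.3, 148.3, 156.5 and 154.1 CPM with both ligands. Of the A2A antagonist libraries 3 lay above all dual libraries, and of the dual libraries 3 lay below all A2A antagonist libraries, so that the groups overlapped only through replicate 4 of the first and replicate 3 of the second. The log2 fold change of Tgfb3 was -0.072 (SE 0.034, 95% interval -0.14 to -0.00044), with an adjusted p-value of 0.387 and an exact permutation p of 0.0571. Some exonic bases of Tgfb2 and Tgfb3 lie opposite to non-coding genes: 124 bases of Tgfb2 opposite Gm29491, and 163 and 257 bases of Tgfb3 opposite Gm37804 and Gm48008. The strand setting of the counting was not stated. These partners had 20, 242 and 79 counts in all 8 libraries together. If strand was ignored, reads over shared bases may have been assigned to neither gene, so these counts cannot show how many reads were lost.

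**Figure D3:**
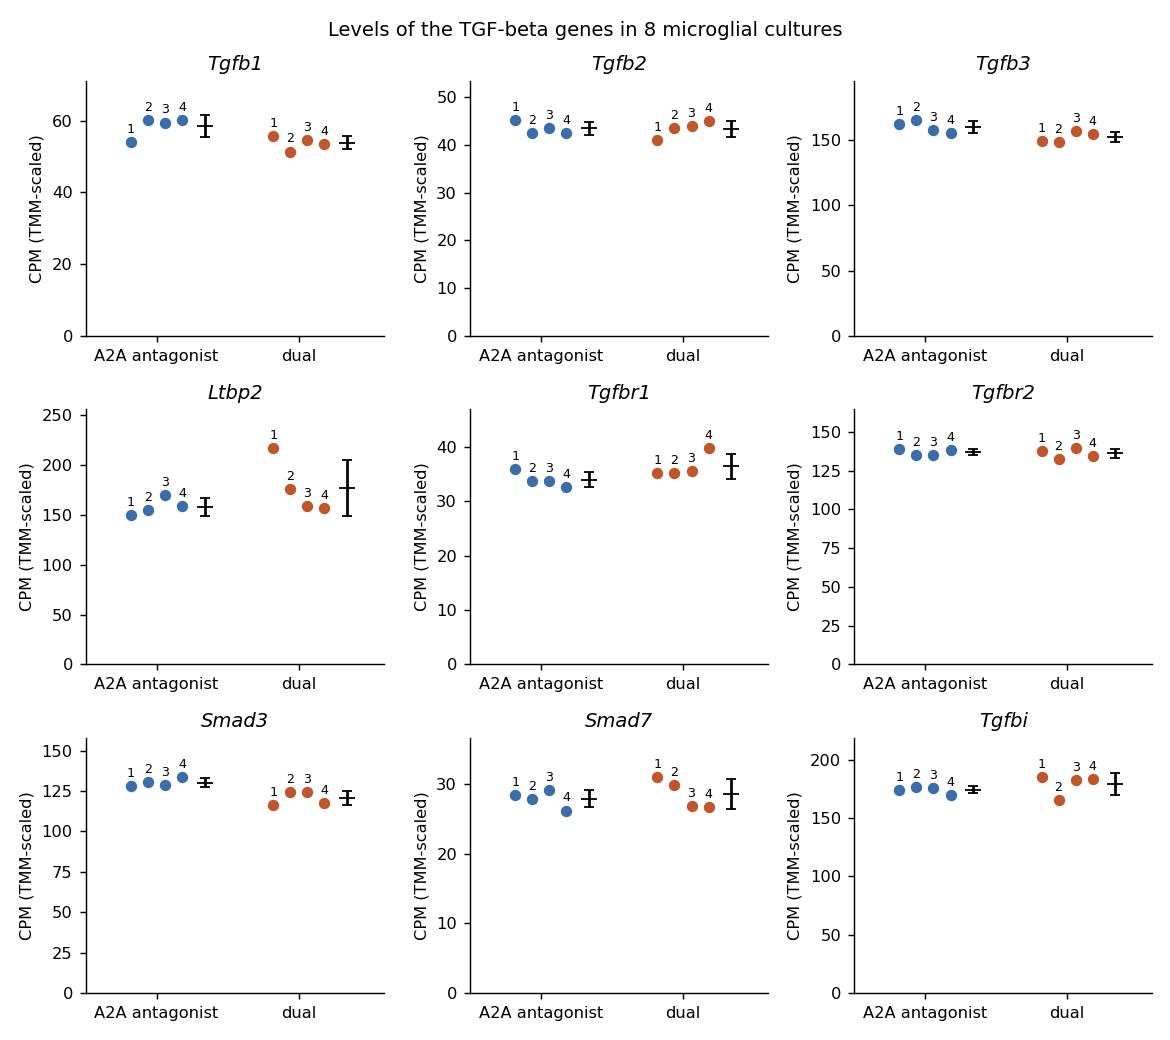
TMM-scaled CPM (y axis, from 0) of each of the 9 TGF-β genes in the A2A antagonist and dual groups (x axis), with 1 numbered point per library and the mean with SD over 4 libraries as a black bar. Only in the Smad3 panel do the groups not overlap, with 128.1 to 133.9 CPM against 116.2 to 124.5 CPM, and replicate 1 of the dual group stands out in the Ltbp2 panel at 216.4 CPM.

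Ltbp2 (ENSMUSG00000002020, chromosome 12, 84783212 to 84876532, minus strand) belongs to the family of latent TGF-β binding proteins, although its product is known mainly as a microfibril component that does not itself bind latent TGF-β. It had 149.2, 154.2, 169.8 and 158.2 CPM in the A2A antagonist group and 216.4, 175.3, 159.1 and 156.5 CPM in the dual group. Replicates 1 and 2 of the dual group were the highest of the 8 libraries, and replicates 3 and 4 lay within the range of the A2A antagonist group. The means were 157.9 ± 8.78 and 176.8 ± 27.7 CPM (SD, n = 4 each), the log2 fold change was 0.16 (SE 0.073, 95% interval 0.0077 to 0.32), the adjusted p-value was 0.359 and the exact permutation p was 0.20. Without replicate 1 of the dual group the log2 fold change was 0.051. The same library had the highest sum of fibroblast markers, 3256 CPM where the other 7 had 2566 to 3021 CPM. Replicate 2 of the dual group, with 175.3 CPM of Ltbp2, had a sum of 2571 CPM. Replicate 3 of that group, with 159.1 CPM of Ltbp2, had 3021 CPM. With the mean of each group subtracted from log2 CPM, Pearson's r of Ltbp2 with this sum over the 8 libraries was 0.47. Replicate 1 of the dual group was also highest for the summed mural markers, at 235.9 CPM, and r of Ltbp2 with that sum was 0.49. The part of fibroblasts or mural cells in the level of Ltbp2 was not tested. Of the exonic bases of Ltbp2, 764 lie opposite the antisense gene D030025P21Rik, which had 281 counts in all, with the same limit as for Tgfb2 and Tgfb3. The other latent binding protein genes differed widely in level: Ltbp3 had 58.7 ± 1.80 CPM per kb (SD, n = 4) with the antagonist, Ltbp4 had 2.56 ± 0.303 CPM per kb and Ltbp1 had 1.70 ± 0.105 CPM per kb, against 19.3 ± 1.07 CPM per kb for Ltbp2.

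Among the receptors, the type II receptor gene Tgfbr2 (ENSMUSG00000032440, chromosome 9, 116084293 to 116175360, minus strand) was the steadiest of the 9 genes, with 139.1, 135.0, 135.1 and 138.2 CPM with the antagonist and 137.5, 132.7, 139.3 and 134.6 CPM with both ligands. The coefficient of variation was 1.54% and 2.17% within the groups, and the log2 fold change was -0.0089 (SE 0.033, 95% interval -0.077 to 0.059, adjusted p-value 0.944, exact permutation p = 0.629). The type I receptor gene Tgfbr1 (ENSMUSG00000007613, chromosome 4, 47353222 to 47414931, plus strand) had 35.8, 33.7, 33.8 and 32.5 CPM with the antagonist and 35.2, 35.1, 35.5 and 39.7 CPM with both ligands. All dual libraries lay above 3 of the 4 A2A antagonist libraries, but replicate 1 of that group was higher than 3 of the dual libraries. The log2 fold change of Tgfbr1 was 0.10 (SE 0.049, 95% interval -0.0027 to 0.20), with an adjusted p-value of 0.407 and an exact permutation p of 0.114, and it was 0.055 without replicate 4 of the dual group. Per kb of length there was 3.22 ± 0.122 times as much Tgfbr2 as Tgfbr1 in the A2A antagonist group and 2.99 ± 0.198 times in the dual group (SD, n = 4 each), with ranges of 3.10 to 3.39 and 2.71 to 3.13 that overlapped.

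Smad3 (ENSMUSG00000032402, chromosome 9, 63646767 to 63757994, minus strand), which encodes the receptor-activated transcription factor of the pathway, came closest to the threshold. It had 128.1, 130.4, 128.9 and 133.9 CPM with the antagonist and 116.2, 124.5, 124.2 and 117.4 CPM with both ligands. Every A2A antagonist library was above every dual library, a separation shared by 7.42% of all genes tested, and its exact permutation p of 0.0286 is the smallest that 4 against 4 libraries can give. The means were 130.3 ± 2.56 and 120.6 ± 4.36 CPM (SD, n = 4 each), a level 7.44% lower with both ligands. The log2 fold change of Smad3 was -0.11 (SE 0.035, 95% interval -0.19 to -0.037), with an unadjusted p-value of 0.00543 and an adjusted p-value of 0.174 in edgeR. The DESeq2 Wald test gave an adjusted p-value of 0.0421 for the same log2 fold change of -0.11, so the call for Smad3 depended on the tool. Over all alternatives the adjusted p-value of Smad3 ranged from 0.0421 to 0.426 and its log2 fold change from -0.13 to -0.095.

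Smad7 (ENSMUSG00000025880, chromosome 18, 75367529 to 75395935, plus strand), the inhibitory SMAD that TGF-β itself induces, had 28.5, 27.9, 29.2 and 26.2 CPM with the antagonist and 31.1, 29.9, 26.9 and 26.8 CPM with both ligands. The groups overlapped, with 2 dual libraries above and 2 within the range of the A2A antagonist group. The log2 fold change was 0.032 (SE 0.056, 95% interval -0.085 to 0.15, adjusted p-value 0.867, exact permutation p = 0.571), and its sign turned without replicate 1 of the dual group (-0.0081). Per kb of length the ratio of Smad3 to Smad7 was 3.81 ± 0.251 in the A2A antagonist group and 3.45 ± 0.306 in the dual group (SD, n = 4 each), and the ranges, 3.60 to 4.16 and 3.05 to 3.77, overlapped. Tgfbi (ENSMUSG00000035493, chromosome 13, 56609523 to 56639562, plus strand), a secreted matrix protein gene named for its induction by TGF-β, had 174.3, 176.8, 175.7 and 169.9 CPM with the antagonist and 185.4, 165.7, 182.6 and 183.5 CPM with both ligands. In the dual group 3 libraries lay above all A2A antagonist libraries and replicate 2 lay below all of them. The log2 fold change of Tgfbi was 0.042 (SE 0.037, 95% interval -0.037 to 0.12), with an adjusted p-value of 0.693 and an exact permutation p of 0.371. It was 0.077 without replicate 2 of the dual group and 0.025 without replicate 1 of that group, and between 0.030 and 0.049 without any other single library.

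Whether the rest of the pathway differed was asked with 7 further lists. Together they held 119 genes, of which 106 were tested and none was called in edgeR, where 39 of all genes tested were (0.208%). Without adjustment, 20 of the 106 had a p-value under 0.05, 17 higher and 3 lower with both ligands, beside 12.8% of all genes, of which 1122 were higher and 1278 lower. The median log2 fold change of the lists together was 0.033, against 0.0038 over all genes. Of the 106 genes, 69 lay above and 37 below 0, where 9664 of all genes tested lay above and 9092 below. The tallies of single lists below are to be read beside these, and no set test was made. DESeq2 gave an adjusted p-value to 76 of the 116 genes present and called 6 of them (7.89%), beside 4.7% of all genes with one. They were Thbs1, Ep300, Id1, Id3, Fcrls and Csf1r, named after their values were seen.

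The 22 genes of latency and activation, of which 19 were tested, had 14 above and 5 below 0. The highest log2 fold change was that of Mmp9, a secreted gelatinase that can release latent TGF-β, with 187.6 ± 16.3 CPM with the antagonist and 237 ± 35.3 CPM with both ligands (SD, n = 4 each), which is 0.34 (SE 0.076) on the log2 scale (adjusted p-value 0.0651). The lowest value was that of Lrrc32, which encodes a cell surface anchor of latent TGF-β, with -0.13 (adjusted p-value 0.643). Thbs1, whose product thrombospondin-1 activates latent TGF-β, had 504.9 ± 31.2 and 553.5 ± 17.3 CPM (SD, n = 4 each), a log2 fold change of 0.13 and an adjusted p-value of 0.156 in edgeR and 0.0439 in DESeq2. Nrros, which anchors latent TGF-β1 on microglia, was expressed at 3.36 ± 0.301 and 3.33 ± 0.298 CPM per kb (SD, n = 4 each), and the activating integrin subunit Itgb8 at 31.7 ± 0.750 and 31.8 ± 2.29 CPM per kb, while Itgb6 was below the filter.

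Of the 12 receptor and co-receptor genes, 11 were tested, 8 above and 3 below 0, with Tgfbr3 (betaglycan, 0.14, adjusted p-value 0.269) and Acvr1 (-0.047, adjusted p-value 0.693) at the ends. The bone morphogenetic protein (BMP) receptor gene Bmpr1a, at 54.7 ± 1.68 CPM per kb with the antagonist, and the activin receptor gene Acvr1b, at 37.4 ± 0.894 CPM per kb (SD, n = 4 each), both exceeded Tgfbr1 on the same scale. Among the SMADs and their partners, 9 of 10 genes were tested, 7 above and 2 below 0. The coactivator gene Ep300 had the highest log2 fold change of that list (0.12, SE 0.033, adjusted p-value 0.130 in edgeR and 0.0157 in DESeq2) and Smad1, a SMAD of BMP signalling, the lowest (-0.082, adjusted p-value 0.403). Per kb, the shared partner Smad4 had 22.5 ± 0.335 CPM with the antagonist, close to Smad3 at 23.5 ± 0.462, and Smad2 had 8.34 ± 0.136 (SD, n = 4 each). All 17 feedback and inhibitor genes were tested, 12 above and 5 below 0, from -0.087 for the activin antagonist Fst (adjusted p-value 0.607) to 0.12 for the receptor signalling inhibitor Ldlrad4 (adjusted p-value 0.467) among genes whose mean log2 CPM reached 1.

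Of the classical target genes, 21 of 23 listed symbols were present and all 21 were tested, 14 above and 7 below 0, with 5 higher and 2 lower at an unadjusted p-value under 0.05. Of these, Cyr61 and Ctgf, matricellular genes induced by TGF-β, had log2 fold changes of 0.27 (SE 0.088, adjusted p-value 0.192) and 0.20 (SE 0.069, adjusted p-value 0.217), and Fn1, the fibronectin gene, had 0.15 (SE 0.050, adjusted p-value 0.197). The 2 lower genes were Id1 and Id3, inhibitors of DNA binding best known as BMP targets. Id3 had 732.5 ± 53.2 CPM with the antagonist and 657.9 ± 12.9 CPM with both ligands (SD, n = 4 each), which is -0.16 on the log2 scale (SE 0.042), the adjusted p-value being 0.112 in edgeR and 0.0165 in DESeq2. Id1 had 162.9 ± 14.2 and 146.6 ± 1.44 CPM (SD, n = 4 each), a log2 fold change of -0.15 and adjusted p-values of 0.164 and 0.0498. These 4 genes and Fn1 were chosen after their values were seen. By the rule for named genes, Tagln had the largest value (0.34, adjusted p-value 0.362) and Postn the lowest (-0.16, adjusted p-value 0.671). Of the target genes, 5 also stand in the cell type marker lists. In bulk RNA of these mixed cultures, neither their values nor those of the other target genes can be told apart from cell makeup.

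The microglial identity genes that depend on TGF-β numbered 19, of which 17 were tested, 6 above and 11 below 0. Their levels differed widely. With the antagonist, Gpr34, P2ry13 and P2ry12 had means of only 0.285, 1.06 and 1.66 CPM, while Gas6 and Rhob had 199.1 and 275 CPM. The tally counts all of them alike, and which cells of the culture carried each gene was not tested. Fcrls, a microglial Fc receptor-like gene, had 33.1 ± 0.903 CPM with the antagonist and 26.2 ± 4.57 CPM with both ligands (SD, n = 4 each), which is -0.33 on the log2 scale (SE 0.083), the adjusted p-value being 0.0952 in edgeR and 0.0112 in DESeq2. The receptor gene of macrophage colony-stimulating factor, Csf1r, had a log2 fold change of 0.11 (SE 0.034), with an adjusted p-value of 0.171 in edgeR and 0.0461 in DESeq2. Csf1r is also 1 of the 8 microglia markers, and 3 genes of the identity list are cell type markers. Neither their values nor those of the other identity genes, Fcrls among them, can be told apart from cell makeup. The identity list thus held values in both directions, with a median of -0.014.

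**Figure D4:**
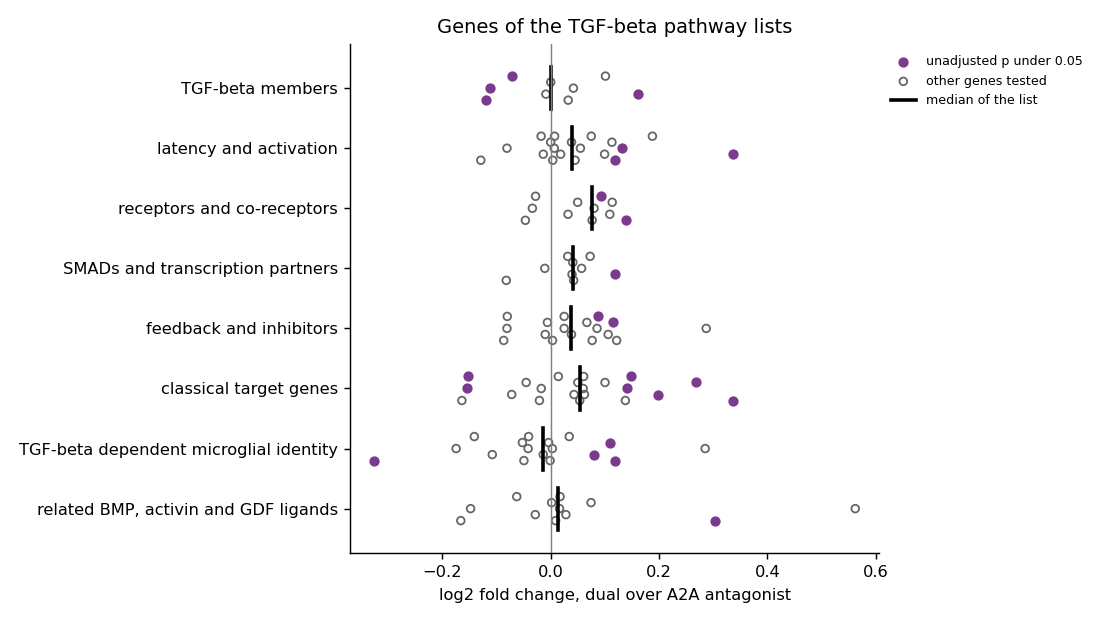
Log2 fold change of the dual group over the A2A antagonist group (x axis) for each tested gene of the 9 TGF-β genes and the 7 further lists (y axis), with filled points at an unadjusted p-value under 0.05 and a bar at the median of each list. The medians lie between -0.014 (identity genes) and 0.076 (receptors), and none of the points passed an adjusted p-value of 0.05 in edgeR.

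How the 9 genes varied together between cultures was described by Pearson's r of log2 CPM over the 8 libraries after the mean of each group was subtracted. Among the 36 pairs the closest were Ltbp2 with Smad7 (0.79) and Tgfb2 with Tgfbr1 (0.72), and the most opposed were Ltbp2 with Tgfb2 (-0.82) and Tgfb1 with Tgfb2 (-0.72). Tgfb1 and its target Tgfbi had 0.46, and Smad3 and Smad7 had -0.40. Against summed markers, Tgfbi went with the fibroblast list (0.84), while Ltbp2 and Smad7 were opposed to the astrocyte list (-0.85 and -0.86). Values as large were found for Tgfbr1 with the neuron list (0.86) and for Tgfb3 with the endothelial list (0.84). The next in size were Tgfbr1 with the oligodendrocyte lineage list (-0.76) and Ltbp2 with the neuron list (-0.76). The neuron sum rested mainly on Map2, with a mean of 96.9 CPM, followed by Syt1 with 6.66 CPM. Rbfox3, Snap25 and Nefl had means of 0.161, 0.326 and 0.224 CPM. The endothelial sum was led by Cdh5 with 34.7 CPM and Kdr with 14.0 CPM. Values with these lists therefore follow few genes and need not follow neuronal or endothelial content. The highest r of Tgfbi was with Mmp16 (0.99), followed by Cacna2d1 and the matrix crosslinking enzyme gene Lox, and that of Ltbp2 was with Svil (0.98), followed by 2010111I01Rik and Fndc3b. For the ligands the 3 highest were Mapk1ip1, Plekha2 and Nmnat2 for Tgfb1 (0.96 for the first), Zdhhc21, Lamtor3 and Zfp322a for Tgfb2 (0.98) and Itih2, Tceal1 and Thbd for Tgfb3 (0.97). For the receptors they were Fem1b, Sf3b1 and Eid1 for Tgfbr1 (0.99) and Malsu1, Shank3 and Zfp608 for Tgfbr2 (0.98), and for the SMAD genes Phf8, Mtmr11 and Ubxn11 for Smad3 (0.98 for the first) and Coq6, Cops8 and Irf5 for Smad7 (0.995). These are the extremes of 11061 genes compared over only 8 points, and differences in cell makeup between cultures enter all of them.

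**Figure D5:**
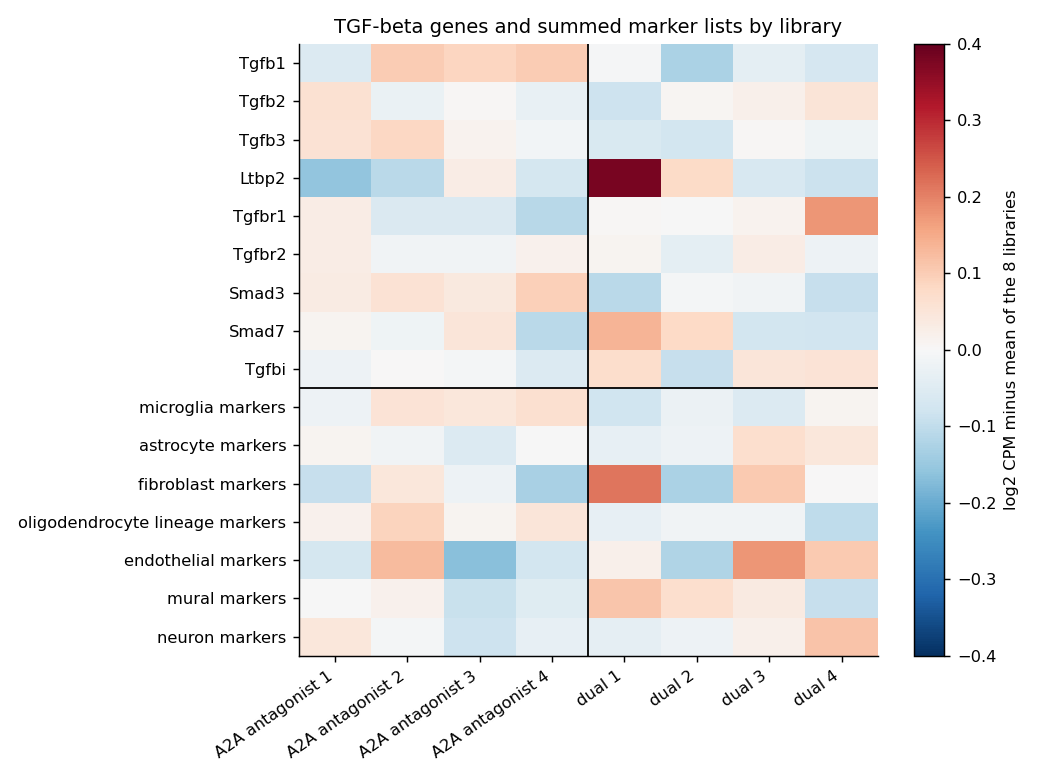
Log2 CPM of the 9 TGF-β genes and of the summed cell type marker lists (rows), minus the mean of the 8 libraries, in each library (columns), with red above and blue below that mean. Replicate 1 of the dual group is highest for Ltbp2 (216.4 CPM), for Smad7 (31.1 CPM), for the fibroblast markers (3256 CPM) and for the mural markers (235.9 CPM).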

How the data were processed

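RNA sequencing had been done on 8 libraries of activated mouse microglial cultures, 4 per group. According to the methods of the study and the processing notes, the authors filtered paired-end reads, aligned them with HISAT2 to an Ensembl mouse genome (mm10) and counted reads per gene with featureCounts 1.5.0-p3. The deposited values used here are raw counts, which the authors had neither normalized nor pooled. Gene length in bases, in the authors' own deposited column, served to divide CPM. The deposited tables also hold the authors' fold changes and p-values, which were not used, and 9 columns of values per library that belong to no sample listed here, which were not used in any step. Coordinates are those of the deposited table and are the same in GENCODE M21 (GRCm38) for the 9 genes, whose counts in the A2A antagonist libraries were the same in both tables.

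Counts were tested with edgeR 4.0.16 (R 4.3.3) across all genes: filterByExpr with a minimum count of 10, TMM factors, the quasi-likelihood F test without covariates, and Benjamini-Hochberg adjustment over 18756 genes, with a threshold of 0.05. The median log2 fold change over all genes was 0.0038. Standard errors came from the F statistics. Single genes were also compared with two-sided exact permutation tests, not adjusted. DESeq2 1.42.0, other scalings, no filter, a replicate block and leaving out each library were the alternatives. The fit was tested on simulated data. Pairs of libraries of a group differed by 3.58 to 8.65 times the chi-square per degree of freedom of counting noise, so none was counted as a copy. Named genes are the 9 members, in each list the highest and the lowest log2 fold change among genes whose mean log2 CPM reached 1, and for likeness the 3 highest r among genes whose mean log2 CPM reached 3. Some genes that the lists and this rule would name are not reported here. The members and lists were chosen with earlier results of these data known.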

Additional observations from a re-analysis of the deposited data

Results flagged for a closer look

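In each group of 4 libraries, the library farthest from the others was compared with the range of the group by Dixon's criterion. Of 32 such groups of values (levels of the 9 genes, and shares and ratios between them), 5 were singled out, where about 1 in 20 is singled out by chance. Tgfb1 in replicate 1 of the A2A antagonist group was at 54.0 CPM, below the other 3 at 59.5 to 60.2 CPM. Tgfbr1 in replicate 4 of the dual group was at 39.7 CPM, above the other 3 at 35.1 to 35.5 CPM. Tgfbi in replicate 2 of the dual group was at 165.7 CPM, below the other 3 at 182.6 to 185.4 CPM. In replicate 1 of the dual group Tgfb1 took 17.8% of the ligand sum per length, where the other 3 had 16.6% to 16.7%, and the ratio of Tgfb3 to Tgfb1 was 3.99, where the other 3 had 4.28 to 4.30. The last 2 values share the level of Tgfb1 and are not independent.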

How the results depend on the processing

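None of the 9 TGF-β genes was called in edgeR with other scaling factors, with total counts alone, without a filter on low counts, with the replicate block or without any one library (0 to 0), and DESeq2 called 1, Smad3. Log2 fold changes of Tgfb1, Tgfb3, Ltbp2, Tgfbr1, Smad3 and Tgfbi kept their sign under every alternative. That of Tgfb2, at 0 to 2 decimals, turned to -0.00046 with DESeq2 size factors, -0.0019 in the DESeq2 test, -0.0053 without the filter and -0.00073 with the replicate block, and ran from -0.017 to 0.025 without single libraries. Tgfbr2 turned to 0.0013 with total counts alone and ran from -0.024 to 0.0025 without single libraries, and Smad7 from -0.0081 to 0.062. Over all genes, 39 calls became 417 in DESeq2, 366 without the filter and 17 with the replicate block, and ran from 0 to 172 without single libraries: 0 when A2A antagonist replicate 4 or dual replicate 3 was left out, 5 for A2A antagonist replicate 2, 6 for replicate 3 and 172 for replicate 1. The cause was not tested. In the pathway lists 0 calls became 6 of 76 in DESeq2 (7.89%, beside 4.7% of all genes with an adjusted p-value). Without the filter they became 8, beside the 366 over all genes, whose share was not computed. These 8 were Mmp9, Fcrls, Cyr61, Id3, Ctgf, Fn1, Id1 and Thbs1, with adjusted p-values in edgeR from 9.7e-06 to 0.048. Without single libraries the calls ran from 0 to 2. They were Id3 and Cyr61 without replicate 1 of the A2A antagonist group, beside 172 over all genes. Without replicate 4 of the dual group they were Fcrls and Mmp9, beside 49 over all genes. Deviations of same-numbered libraries had r from -0.206 to -0.047 over 4 pairs, so the numbers were not taken as pairs. Differently numbered libraries had r from -0.141 to 0.216, the highest for A2A antagonist replicate 4 with dual replicate 2. Whether such libraries shared a litter or batch was not tested. The order of levels used one gene length, and coding lengths were not run.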

Other observations

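The ligands related to TGF-β were described beside it. Of the 16 BMP, activin and growth differentiation factor genes listed, 12 were tested, 8 above and 4 below 0, the median on the log2 scale being 0.013, and none was called in edgeR (1 at an unadjusted p-value under 0.05). DESeq2 gave an adjusted p-value to only 5 of the 16 and called none of these, with 1 of the 16 at an unadjusted p-value under 0.05. Bmp6, at 54.1 ± 1.26 CPM per kb with the antagonist and 54.7 ± 2.27 with both ligands, was expressed at a level near that of Tgfb3, and Gdf11 had 16.0 ± 0.473 and 16.3 ± 0.400 CPM per kb (SD, n = 4 each). The astacin protease gene Bmp1, a procollagen processing enzyme and no ligand despite its name, had 43.7 ± 0.733 and 42.9 ± 3.08 CPM per kb (SD, n = 4 each). Inhba, the activin A subunit gene, had the largest value by the rule for named genes, with 7.02 ± 0.258 CPM and 8.68 ± 1.05 CPM (SD, n = 4 each), which is 0.30 on the log2 scale (SE 0.088, adjusted p-value 0.145), and Gdf15 the lowest with -0.15 (adjusted p-value 0.667).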
